A study of Mus musculus with 18 samples.

Results

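The genes described here are 6 matrix metalloproteinases (Mmp8, Mmp9, Mmp12, Mmp13, Mmp14 and Mmp19), 2 tissue inhibitors of metalloproteinases (Timp1 and Timp2), urokinase (Plau) and the urokinase receptor (Plaur). They were picked by symbol, and all 10 were found among the 22852 gene symbols of the count files and passed the expression filter, as did 11305 genes in all. RNA-Seq libraries came from bone marrow-derived macrophages (BMDMs) of female C57BL/6 mice, with 3 biological replicates in each of 6 groups. All cultures had been grown with conditioned medium of L929 cells, and the age of the mice is not given in the sources used here. The groups were unstimulated BMDMs; LPS-stimulated BMDMs (a single dose of 10 ng/ml, taken as 3 h from the treatment scheme of the study); LPS-primed BMDMs (100 ng/ml for 24 h); LPS-tolerant BMDMs, which after such priming and a change of medium received 10 ng/ml for 3 h; and the LPS-primed and LPS-tolerant states with 25 µM carboplatin, a platinum drug that crosslinks DNA, added 1 h before priming. LPS is the outer membrane lipid of Gram-negative bacteria, and a culture that has met it once gives a weaker cytokine response to the next dose, which is called tolerance. The carboplatin groups differ from their controls in the drug alone, whereas LPS-tolerant and LPS-primed BMDMs differ in the second dose, the change of medium and 3 h of time together. LPS-stimulated and LPS-primed BMDMs differ in dose (10 or 100 ng/ml) and time (3 or 24 h) together, which cannot be told apart here.

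Matrix metalloproteinases are zinc endopeptidases that are made as inactive proenzymes and, once active, cut collagens, elastin, proteoglycans and many non-matrix proteins such as chemokines. Tissue inhibitors of metalloproteinases block the active enzymes by binding to their catalytic site. Urokinase, held at the cell surface by its receptor, turns plasminogen into plasmin, which dissolves fibrin and activates several metalloproteinase proenzymes. Macrophages use these enzymes to move through tissue and to remodel it after infection.

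The libraries held between 6869667 and 14708099 gene-assigned read pairs (median 8986463). In the 6 libraries numbered 1, 0.103% to 0.175% of read pairs were ambiguous between genes, against 0.231% to 0.286% in the other 12, so the libraries numbered 1 stood apart in every group. The 7 macrophage markers summed to between 114000 and 283000 normalized counts per library. The sums were 148000 to 166000 in unstimulated, 114000 to 136000 in LPS-stimulated and 247000 to 269000 in LPS-primed libraries. In the same order, Lyz2 had means of 81900, 61800 and 144000, and Itgam of 4890, 4950 and 27000. Cd68 had means of 29100, 25600 and 15200, and Mertk of 610, 67.1 and 438. Among these groups, the means of Adgre1, Csf1r and Fcgr1 were lowest in LPS-stimulated and highest in LPS-primed BMDMs. Of the 12 neutrophil markers, Ly6g, Mpo, Retnlg and Cxcr2 had no count in any group, and the whole list summed to between 13.6 and 543 normalized counts. The 8 fibroblast or stromal markers summed to between 1.64 and 8.18 in unstimulated, 23.9 and 60.1 in LPS-stimulated and 41.3 and 85.3 in LPS-primed libraries. Of these, Dcn (decorin) had means of 0.303, 6.58 and 45.5 in the same order, and Pdgfrb of 1.82, 22.6 and 8.74. The rest of the 8 had means of at most 4.28 in these groups (Cdh11, LPS-stimulated). The 5 osteoclast markers summed to between 284 and 616 in unstimulated, 948 and 1430 in LPS-stimulated and 574 and 981 in LPS-primed libraries. Of these, Acp5 had means of 74.5, 905 and 389, Ctsk of 362, 211 and 396, and Ocstamp of 0.91, 28.3 and 0. Dcstamp had means of 7.77, 14.7 and 0, and Calcr of 1.18, 2.6 and 0.706. Ocstamp, Dcstamp and Calcr were thus lower in LPS-primed than in unstimulated BMDMs, unlike the sum. Both sums were thus higher in most libraries given LPS, as were Mmp9, Mmp13, Mmp14 and Timp1, and their part in those changes was not tested. Levels are given as normalized counts, in which each library was scaled with TMM factors to a common effective size of 9307681 read pairs. In bulk libraries, fewer cells of a type and less RNA per cell cannot be told apart.

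LPS raised 5 of the 6 metalloproteinases after 24 h (all but Mmp12) and 3 of them after the single dose (Mmp13, Mmp14 and Mmp19). Mmp14 and Timp1 were high after both the 3 h and the 24 h exposure, Mmp13 and Plaur were highest after the single 3 h dose, and Mmp8 and Mmp9 were high after 24 h. In the quasi-likelihood F test of edgeR, adjusted after Benjamini and Hochberg over 11305 genes, 9 of the 10 genes differed between LPS-primed and unstimulated BMDMs at an adjusted p under 0.05, against 25.2% of all tested genes (9 against 38.6% with the replicate number as a block). Of these, 7 were higher (12.1% of all genes) and 2 were lower (13.1%). The single dose changed 5 of the 10, which is close to the 51.2% of all genes changed in either direction. All 5 went upward, against 24.3% of all genes. With the replicate number as a block, the single dose changed 8 of the 10 (63.2% of all genes), all upward (29.5%), and DESeq2, the tool of the study, called 7 (53%). Where the study's limit of |log2FC| > 2 was added, 5 genes rose with priming (3.41%) and 4 with the single dose (6.42%). The median log2FC of the 10 genes was 2.11 with priming and 1.89 with the single dose, where the medians over all tested genes were -0.02 and -0.09.

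**Figure D1:**
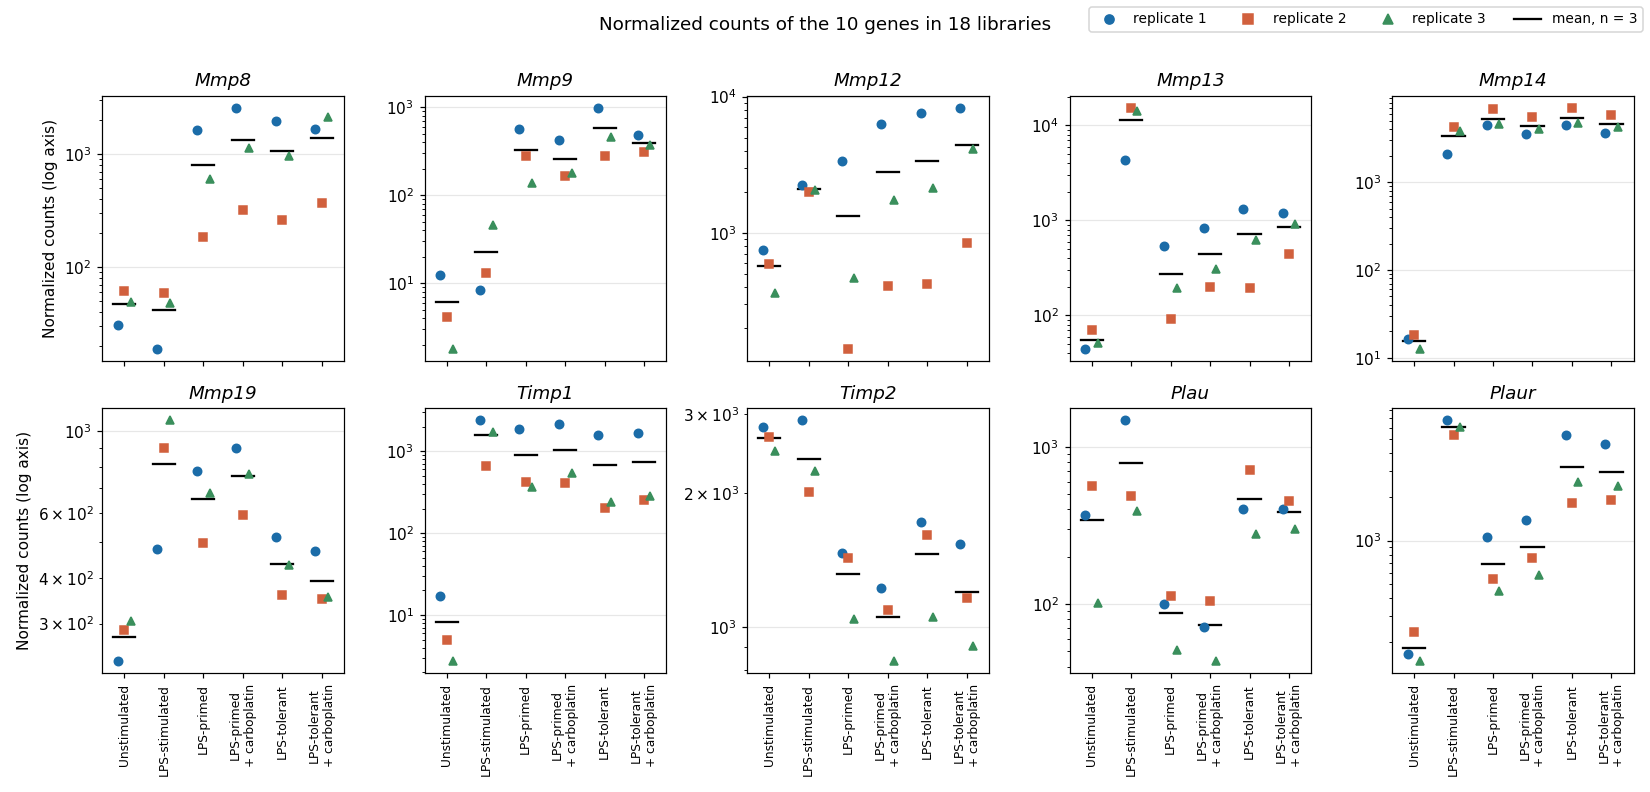
Normalized counts (log axis) of the 10 genes in the 18 libraries, with 1 panel per gene, the 6 groups on the horizontal axis, symbols for replicates 1 to 3 and a bar at the mean of each group. Mmp14 lies between 12.7 and 18.03 in unstimulated BMDMs and between 2083 and 7070 in every library given LPS, and Mmp13 peaks in the LPS-stimulated group.

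Mmp14, the membrane-anchored collagenase that also activates other metalloproteinases at the cell surface, had the widest range of the 10 genes between groups, 8.25 on the log2 scale. The unstimulated libraries held 16.3, 18.03 and 12.7 normalized counts in replicates 1 to 3. After the single dose they held 2083, 4202 and 3868, and after priming 4435, 6856 and 4586. No library given LPS came near the unstimulated level. The log2FC was 8.39 ± 0.39 (SE, n = 3 per group) with priming, a 334-fold difference with an adjusted p of 1.39e-10 in edgeR, and 7.74 ± 0.38 with the single dose, a 214-fold difference with an adjusted p of 1.22e-10. LPS-tolerant BMDMs (4452, 7070 and 4785) held about as much Mmp14 as LPS-primed BMDMs, with a log2FC of 0.04 ± 0.27 and an adjusted p of 0.964 in edgeR. Against LPS-stimulated BMDMs, the level in LPS-tolerant BMDMs was higher by a log2FC of 0.68 ± 0.27, with an adjusted p of 0.0584 in edgeR, of 0.000293 with the replicate block, and of 0.0468 or 0.0405 without LPS-tolerant replicate 1 or LPS-stimulated replicate 2. The gene lies on chromosome 14 from 54668878 to 54682821 on the plus strand (GENCODE vM39, GRCm39).

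Mmp13, also called collagenase 3 (chromosome 9, 7272514 to 7283331, plus strand), peaked after the single dose. The unstimulated libraries held 44.9, 69.7 and 51.8 normalized counts, and the LPS-stimulated libraries 4316, 15380 and 14160. The single dose raised it 202-fold, with a log2FC of 7.66 ± 0.92 and an adjusted p of 3.15e-06 in edgeR, and all LPS-stimulated libraries lay above every library of every other group. LPS-primed libraries held 539, 91.1 and 193 normalized counts and LPS-tolerant libraries 1335, 197 and 617. LPS-tolerant BMDMs thus held less Mmp13 than LPS-stimulated BMDMs, by a log2FC of 3.98 ± 0.76 (log2FC -3.98, 15.8-fold, adjusted p 0.000598 in edgeR). The rise with priming was smaller, with a log2FC of 2.30 ± 0.76 and an adjusted p of 0.0347 in edgeR. That call was lost with limma-voom (adjusted p 0.199), without LPS-primed replicate 1 (log2FC 1.36, adjusted p 0.235 in edgeR) and without unstimulated replicate 1, 2 or 3 (adjusted p 0.0973, 0.0705 and 0.0924).

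The upstream sequences of Mmp13, Plaur and Mmp14 are shown as examples of windows with the AP-1 motif, in the first and second of these genes, and of a window without it. They are the 250 bases before the start of the RefSeq gene, written 5′ to 3′ on the strand of the gene, with build GRCm38.p6, which is not the build of the gene positions given here. Capitals mark the AP-1 motif TGANTCA, the binding sequence of Fos and Jun dimers.
Mmp13 upstream, chr9:7272264-7272513, plus strand: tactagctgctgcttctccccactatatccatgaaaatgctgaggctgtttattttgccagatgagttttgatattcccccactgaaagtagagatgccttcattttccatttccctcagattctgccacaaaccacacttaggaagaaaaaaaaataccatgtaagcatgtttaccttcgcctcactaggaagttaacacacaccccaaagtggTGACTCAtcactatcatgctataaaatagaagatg
Plaur upstream, chr7:24462233-24462482, plus strand: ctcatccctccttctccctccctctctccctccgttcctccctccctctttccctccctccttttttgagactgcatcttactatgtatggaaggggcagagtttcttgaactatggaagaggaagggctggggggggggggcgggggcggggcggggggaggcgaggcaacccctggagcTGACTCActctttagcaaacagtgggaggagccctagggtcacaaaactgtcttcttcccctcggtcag
Mmp14 upstream, chr14:54431348-54431597, plus strand: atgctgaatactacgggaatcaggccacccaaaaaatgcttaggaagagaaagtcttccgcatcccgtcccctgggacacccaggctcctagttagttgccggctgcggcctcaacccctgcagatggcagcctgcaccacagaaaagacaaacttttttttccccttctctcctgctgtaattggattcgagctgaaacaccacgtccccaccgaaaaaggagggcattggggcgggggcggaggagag

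RefSeq windows of 300 bases, from 250 bases before to 50 after the start, were matched for 7 of the 10 genes, which had 8 windows, since Mmp12 had 2. No window was matched for Mmp9, Mmp19 and Plau. On either strand, the AP-1 motif TGANTCA was found in 3 of the 7 genes, in which it began 35 bases before the start in Mmp13, 69 in Plaur and 44 in the second window of Mmp12. It was present in 7.81% of the 32851 windows of all genes. The shares over all genes given here are per window, whereas the 7 genes are counted by gene, also where a gene had 2 windows. The PEA3 motif AGGAAG, which Ets factors bind, was found in 6 of the 7 genes, all but Timp2, against 35.4% of all windows. The kappaB motif, bound by NF-κB, was found in the first window of Mmp12 alone, against 8.46% of all windows. Mmp12, with an AP-1 match, had a mean of 2096 normalized counts after the single dose and 3380 in LPS-tolerant BMDMs. Timp1, without one, had its highest mean, 1596, after the single dose. A match of letters is no measured binding, and the part of the matches in these levels was not tested.

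Mmp8, a collagenase best known from neutrophil granules (chromosome 9, 7558457 to 7568487, plus strand), and Mmp9, gelatinase B (chromosome 2, 164780439 to 164797771, plus strand), rose after 24 h of LPS. Mmp8 held 30.6, 61.5 and 49.1 normalized counts in the unstimulated and 1639, 183 and 603 in the LPS-primed libraries. The groups did not overlap, and the log2FC was 4.09 ± 0.95 with an adjusted p of 0.00375 in edgeR and of 0.055 with limma-voom. With the single dose the Mmp8 level was 19.1, 58.8 and 48.3, with a log2FC of -0.13 ± 0.96 and an adjusted p of 0.921 in edgeR. Mmp9 held 12.4, 4.10 and 1.82 normalized counts in the unstimulated and 569, 277 and 137 in the LPS-primed libraries, a log2FC of 5.74 ± 0.80 with an adjusted p of 4.15e-05 in edgeR. After the single dose Mmp9 held 8.35, 13.2 and 46.3, with a log2FC of 1.89 ± 0.89 and an adjusted p of 0.086 in edgeR, 0.0242 with the replicate block, 0.037 with DESeq2 and 0.0499 without unstimulated replicate 1. The unstimulated Mmp9 values rest on only 13, 5 and 2 read pairs.

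Both genes were higher in LPS-tolerant BMDMs than after the single dose. The log2FC was 4.61 ± 0.97 for Mmp8 (LPS-tolerant libraries at 1968, 263 and 956 normalized counts), with an adjusted p of 0.00131 in edgeR. It was 4.66 ± 0.70 for Mmp9 (986, 280 and 461), with an adjusted p of 6.52e-05 in edgeR. LPS-primed BMDMs, without a second dose, had means of 809 (Mmp8) and 328 (Mmp9) against 42.1 and 22.6 after the single dose. LPS-tolerant against LPS-primed BMDMs, the log2FC was 0.39 ± 0.80 for Mmp8 (adjusted p 0.845) and 0.81 ± 0.57 for Mmp9 (0.456) in edgeR. Since neutrophils hold both proteins, their markers were set beside these values. The neutrophil list summed to between 13.6 and 15.6 normalized counts in the unstimulated and between 84.3 and 438 in the LPS-primed libraries, mostly S100a8, with means of 10.1 and 238. Of the 12 markers, 4 (Ly6g, Mpo, Retnlg and Cxcr2) were at 0 in all 6 groups. Camp, a granule gene, had means of 0 in unstimulated, 2.76 in LPS-primed and 6.31 in LPS-tolerant BMDMs, S100a9 of 0.273, 1.09 and 3.66, and Prtn3 of 0, 0 and 1.27. Elane had means of 0.303, 0.313 and 0.844 in the same order. Ctsg (1.82, 0 and 0), Ltf (1.76, 0 and 0) and Ngp (0.273, 0 and 0) went the other way. The part of these low levels in the values of Mmp8 and Mmp9 was not tested.

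Mmp12, macrophage elastase (chromosome 9, 7344381 to 7369499, plus strand), differed more between replicates than between groups. The unstimulated libraries held 750, 591 and 364 normalized counts, and the LPS-primed libraries 3353, 142 and 472. The replicates of LPS-primed BMDMs thus spanned 23.5-fold and lay on both sides of the unstimulated level, with a log2FC of 1.22 ± 1.08 and an adjusted p of 0.467 in edgeR. The LPS-tolerant libraries spanned 17.8-fold (7569, 426 and 2146). After the single dose the replicates were close, at 2250, 1984 and 2053, and did not overlap the unstimulated libraries, with a log2FC of 1.88 ± 1.10 and an adjusted p of 0.163 in edgeR. That test shares 1 estimate of the spread over all 18 libraries, the wide groups included. The adjusted p was 0.0155 with the replicate block, and in a fit of only the unstimulated and LPS-stimulated libraries it was 0.000276. The pooled SD of Mmp12 over the 4 groups given LPS for 24 h was 2.02 on the log2 scale, where the median over all tested genes was 0.296.

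Mmp19, a broadly expressed metalloproteinase (chromosome 10, 128626773 to 128636695, plus strand), changed least among the 5 metalloproteinases that were called with priming. It held 237, 289 and 305 normalized counts in unstimulated, 480, 901 and 1072 in LPS-stimulated and 781, 498 and 680 in LPS-primed BMDMs. The log2FC was 1.56 ± 0.26 with the single dose (adjusted p 0.000105) and 1.24 ± 0.26 with priming (adjusted p 0.00189, edgeR). LPS-tolerant BMDMs, at 517, 358 and 434, were lower than LPS-stimulated BMDMs by a log2FC of -0.91 ± 0.26, with an adjusted p of 0.0112 in edgeR, although 1 of the 3 same-numbered pairs went the other way and the groups overlapped. That call was lost without LPS-tolerant replicate 2 or LPS-stimulated replicate 3, with adjusted p values up to 0.0747. Mmp19 lies within Tmem198b on the opposite strand, which had 29 to 142 read pairs per library against 248 to 1302 for Mmp19.

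Timp1, an inhibitor that is secreted and induced by many cytokines (chromosome X, 20736316 to 20740976, plus strand), went from near 0 to among the most abundant of these transcripts. Its unstimulated libraries held 17.2, 4.92 and 2.73 normalized counts, from 18, 6 and 3 read pairs. The LPS-stimulated libraries held 2390, 661 and 1738, and the LPS-primed libraries 1882, 423 and 370. The log2FC was 7.60 ± 1.32 with the single dose, a 194-fold difference with an adjusted p of 0.000143, and 6.76 ± 1.30 with priming, a 109-fold difference with an adjusted p of 0.000867 (edgeR). LPS-tolerant libraries held 1580, 200 and 240. In every group given LPS, replicate 1 was the highest, by up to 7.89-fold over the lowest. Against LPS-stimulated BMDMs the log2FC in LPS-tolerant BMDMs was -1.25 ± 0.91, with an adjusted p of 0.314 in edgeR. With the replicate block it was -1.80 ± 0.30 with an adjusted p of 8.01e-05, and without LPS-tolerant replicate 1 the adjusted p was 0.0403. Timp1 lies within Syn1 on the opposite strand, which had 67 to 451 read pairs per library, and the strand option of the counting is not given in the sources used here.

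Timp2, the inhibitor that also joins Mmp14 to the proenzyme of Mmp2 (chromosome 11, 118191887 to 118246566, minus strand), moved the opposite way after 24 h. It held 2804, 2671 and 2477 normalized counts in unstimulated, 2905, 2004 and 2235 in LPS-stimulated and 1468, 1429 and 1042 in LPS-primed BMDMs. Timp2 fell with priming by a log2FC of -1.01 ± 0.22, with an adjusted p of 0.00267 in edgeR and no overlap of the groups. With the single dose the log2FC was -0.16 ± 0.22 with an adjusted p of 0.584. LPS-tolerant BMDMs (1721, 1607 and 1052) were below LPS-stimulated BMDMs by a log2FC of -0.71 ± 0.22, with an adjusted p of 0.0205 in edgeR. This call was lost without LPS-tolerant replicate 3 or LPS-stimulated replicate 1, with adjusted p values up to 0.108.

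Plaur, the receptor that holds urokinase at the cell surface (chromosome 7, 24161875 to 24175394, plus strand), was higher after the single dose and again in LPS-tolerant BMDMs. The unstimulated libraries held 164, 233 and 147 normalized counts and the LPS-stimulated libraries 6756, 5333 and 6069, which is a 33.3-fold difference with a log2FC of 5.06 ± 0.50 and an adjusted p of 3.81e-07 in edgeR. After 24 h the LPS-primed libraries held 1062, 543 and 451, still above every unstimulated library, with a log2FC of 1.91 ± 0.44 and an adjusted p of 0.00386. After the second dose and the change of medium, the LPS-tolerant libraries held 5345, 1806 and 2534. These did not overlap the LPS-primed libraries, with a log2FC of 2.24 ± 0.44 and an adjusted p of 0.00542 in edgeR. That call was lost without replicate 2 (adjusted p 0.0656) or replicate 3 (0.183) of every group. Against the single dose the log2FC in LPS-tolerant BMDMs was -0.91 ± 0.42, with an adjusted p of 0.107 in edgeR, 0.00248 with the replicate block and 0.0164 without LPS-tolerant replicate 1.

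Plau, urokinase itself (chromosome 14, 20886722 to 20893453, plus strand), was low after 24 h of LPS. It held 366, 560 and 101 normalized counts in unstimulated and 101, 113 and 50.6 in LPS-primed BMDMs. Plau fell with priming by a log2FC of -1.97 ± 0.59, with an adjusted p of 0.0195 in edgeR. The groups overlapped through unstimulated replicate 3, and the call was lost with limma-voom (adjusted p 0.0796) and without unstimulated replicate 2 (adjusted p 0.123) or LPS-primed replicate 3 (adjusted p 0.0894). After the single dose it held 1476, 485 and 393, with a log2FC of 1.19 ± 0.55 and an adjusted p of 0.0808 in edgeR, 0.0039 with the replicate block, 0.0438 with DESeq2, and 0.0291 or 0.0439 without unstimulated replicate 2 or LPS-stimulated replicate 3. The LPS-tolerant libraries held 401, 710 and 281, all above every LPS-primed library. Against LPS-primed BMDMs the log2FC was 2.41 ± 0.59, with an adjusted p of 0.0219 in edgeR. It was lost without any of the LPS-primed replicates 1, 2 and 3 (adjusted p 0.0545, 0.0524 and 0.106) or without LPS-tolerant replicate 2 (0.0903), and its log2FC was then between 1.96 and 2.63.

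In LPS-tolerant against LPS-primed BMDMs, 2 of the 10 genes, Plau and Plaur, were called, against 6.31% of all tested genes, and both were higher (3.6%). With the replicate block the same 2 were called, which is close to the 18% of all genes, and both were higher (9.67%). The other 8 had log2FC values between -0.58 (Mmp19) and 1.38 (Mmp13), with an adjusted p of 0.201 for Mmp19 and 0.277 for Mmp13 in edgeR. In LPS-tolerant against LPS-stimulated BMDMs, 5 of the 10 were called, against 34.5% of all genes, of which 2 (Mmp8 and Mmp9) were higher (16.2%) and 3 (Mmp13, Mmp19 and Timp2) lower (18.3%). With the replicate block, Mmp14 joined the higher genes and Timp1 and Plaur the lower ones, which gives 8 of 10 against 47.6% of all genes, with 3 higher (22.9%) and 5 lower (24.7%). Of the genes called without the block, Mmp8 and Mmp9 were higher (2.97% of all genes) and Mmp13 was lower (5.07%) by a |log2FC| above 2.

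The change from LPS-primed to LPS-tolerant BMDMs was also tested against the change from unstimulated to LPS-stimulated BMDMs, as a contrast of the 4 groups. The former holds the change of medium along with the 10 ng/ml LPS. The change after priming was smaller for 5 of the 10 genes, against 13.3% of all genes in this direction and 23.8% in either. With the replicate block it was again 5, against 19% and 36.2%. The difference of the log2FC values was -8.01 ± 1.59 for Timp1 (adjusted p 0.00128), -7.70 ± 0.45 for Mmp14 (3.15e-09) and -6.28 ± 1.07 for Mmp13 (0.000339). It was -2.82 ± 0.61 for Plaur (0.00261) and -2.15 ± 0.37 for Mmp19 (0.000357), all by edgeR. Mmp14 and Timp1 were already high in LPS-primed BMDMs and stayed there, whereas LPS-primed BMDMs held little Mmp13 and a mean of 716 ± 575 normalized counts (SD, n = 3) after the second dose, against 11280 ± 6065 after the single dose. Plau went the other way, with a difference of 1.22 ± 0.79 and an adjusted p of 0.302.

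**Figure D2:**
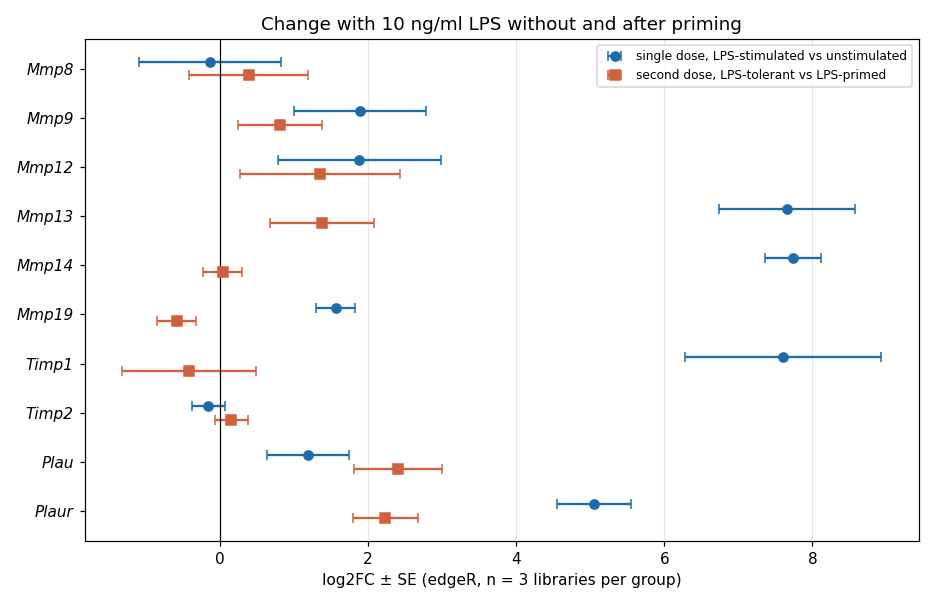
log2FC ± SE (edgeR, n = 3 libraries per group) of the 10 genes with 10 ng/ml LPS, as a single dose to unstimulated BMDMs (circles) and as a second dose to LPS-primed BMDMs (squares). Mmp13, Mmp14 and Timp1 lie between 7.60 and 7.74 with the single dose and between -0.41 and 1.38 with the second. Plau and Plaur were higher by 2.41 and 2.24 in LPS-tolerant than in LPS-primed BMDMs, which also differ in a change of medium.

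Levels of different genes were compared per kilobase of exon (the union of GENCODE vM39 exons). In unstimulated BMDMs Timp2 was the most abundant of the 10 genes, at 594 ± 36.8 normalized counts per kilobase (SD, n = 3), followed by Plau (133 ± 89.8) and Mmp12 (78.5 ± 26.9), which did not differ from Mmp19 (78.1 ± 9.95), and Mmp9 was the least abundant (1.65 ± 1.51). Plau overlapped with its neighbour in that order within 1 SD. After the single dose Mmp13 led with 4221 ± 2269 per kilobase, followed by Plaur with 1514 ± 178 and Timp1 with 816 ± 446. In LPS-primed BMDMs Mmp14 led with 858 ± 220. The next genes, Timp1 (456 ± 438), Mmp8 (333 ± 309) and Timp2 (294 ± 52.8), did not differ from each other beyond their spread, and Timp1 also lay within 1 SD of Mmp14. In LPS-tolerant BMDMs Mmp14 (882 ± 231) and Plaur (807 ± 467) led, and these also lay within their spread.

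The sum of the 6 metalloproteinases per kilobase was divided by the sum of Timp1 and Timp2 in each library. This ratio of transcript levels was 0.323, 0.364 and 0.321 in the unstimulated libraries, so inhibitor transcripts prevailed in all of them. It was 1.89, 2.72 and 3.21 in the LPS-primed and 1.29, 8.89 and 4.71 in the LPS-stimulated libraries, all above 1. Each of these groups lay wholly above the unstimulated one, with a two-sided exact permutation p of 0.1, the smallest that 3 against 3 libraries allow. The makeup differed: Mmp13 took 67.0% to 82.3% of the metalloproteinase sum in LPS-stimulated libraries and 2.34% to 8.28% in LPS-primed libraries, where Mmp14 took 29.5% to 76.3%. Of the inhibitor sum, Timp1 made up 0.25% to 1.38% in unstimulated and 40.3% to 74.5% in LPS-primed libraries. The ratio in LPS-tolerant libraries (2.93, 3.38 and 5.43) overlapped that of LPS-stimulated libraries, with an exact permutation p of 1.

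**Figure D3:**
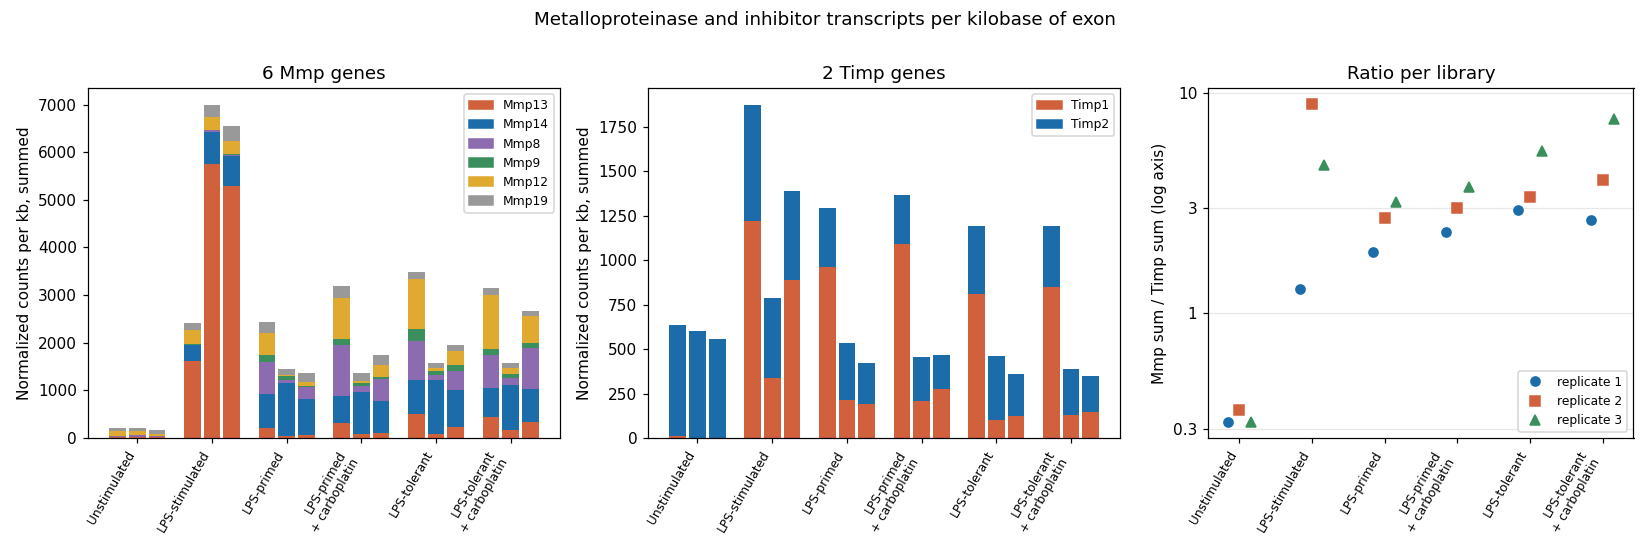
Normalized counts per kilobase of exon, summed over the 6 Mmp genes (left) and the 2 Timp genes (middle) with 1 bar per library in the order of replicates 1 to 3, and the ratio of the sums per library on a log axis (right). The ratio is between 0.321 and 0.364 without LPS and above 1 in every library given LPS, and Mmp13 fills most of the bars of the LPS-stimulated group.

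Carboplatin changed none of the 10 genes at an adjusted p under 0.25, the study's limit for this drug, in LPS-primed (1.2% of all tested genes called) or LPS-tolerant BMDMs (1.65%). The same count of 0 came from DESeq2 (2.72% and 2.81% of all genes called) and limma-voom (0.885% and 0.92%). None of the 10 had an unadjusted p under 0.05 in edgeR without the replicate block, which 6.86% and 6.73% of all genes had. With the block, which called none of the 10 (7.87% and 6.93% of all genes), 1 gene, Timp2, had an unadjusted p under 0.05 in each state (13.7% and 12.4%). The log2FC values lay between -0.36 (Mmp9) and 1.08 (Mmp12) in LPS-primed and between -0.56 (Mmp9) and 0.39 (Mmp8) in LPS-tolerant BMDMs. The difference between the 2 carboplatin effects was called for no gene of the 10 and for none of all 11305 genes by edgeR, DESeq2 or limma-voom, with 131 genes (1.16%) and none of the 10 at an unadjusted p under 0.05 in edgeR. For Mmp12 in LPS-primed BMDMs, the 95% normal interval of the log2FC reached from -1.02 to 3.19, and from 0.02 to 2.54 with the block. The blocked interval was -0.53 to -0.01 for Mmp14 and -0.58 to -0.07 for Timp2 in LPS-primed, and -0.54 to -0.03 for Timp2 in LPS-tolerant BMDMs. Normal intervals are narrower than the F test allows, so those of Mmp12 and Mmp14 leave out 0 although their unadjusted p was not under 0.05.

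Same-numbered libraries with and without carboplatin were also set side by side. In both states, Timp2 and Mmp14 were lower with carboplatin in all 3 pairs. For Timp2 the log2 differences were -0.26, -0.39 and -0.31 in LPS-primed and -0.17, -0.47 and -0.22 in LPS-tolerant BMDMs. For Mmp14 they were -0.32, -0.31 and -0.18, and -0.29, -0.28 and -0.18. With the replicate block, Timp2 had a log2FC of -0.32 ± 0.13 in LPS-primed BMDMs with an adjusted p of 0.268, and with the block in DESeq2 the adjusted p was 0.245, which passes the limit. That fit called 1 of the 10 in LPS-primed (9.37% of all genes) and none in LPS-tolerant BMDMs (8.07%). Mmp12 was higher in all 3 pairs of both states, by 0.90, 1.51 and 1.88 in LPS-primed and by 0.13, 0.99 and 0.93 in LPS-tolerant BMDMs, without a call in any of the fits run. In LPS-primed BMDMs, 5 of the 10 genes were higher in all 3 pairs (21.2% of all tested genes) and 3 were lower in all 3 (20.7%). In LPS-tolerant BMDMs, 2 were higher (21.9%) and 3 lower (22.0%).

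**Figure D4:**
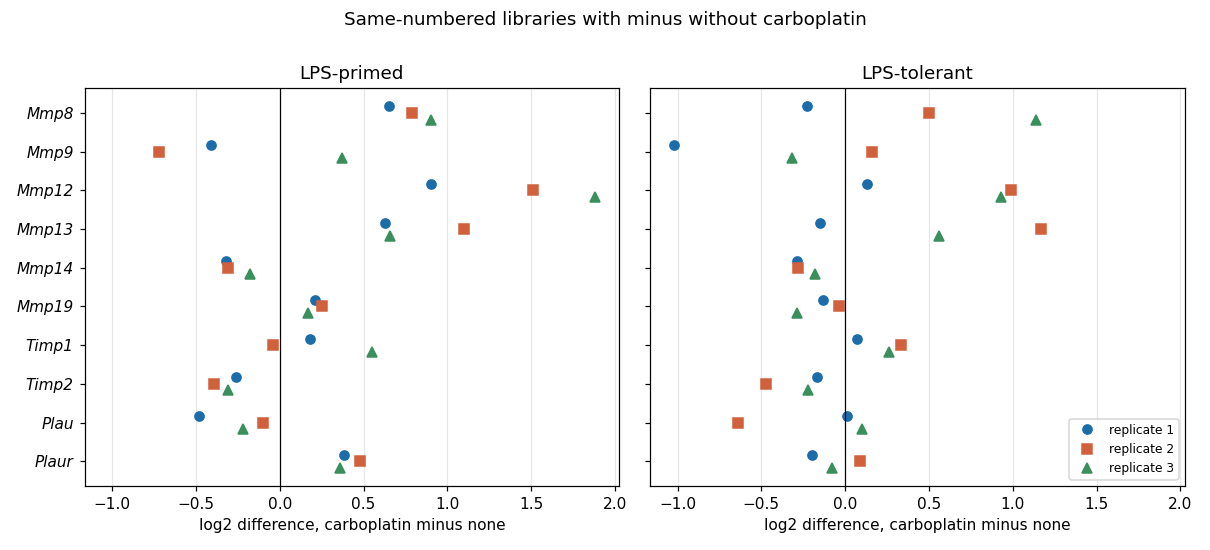
Difference of log2 (normalized counts + 2) between same-numbered libraries with and without carboplatin for the 10 genes, in LPS-primed (left) and LPS-tolerant BMDMs (right), with a symbol for each replicate number. Mmp14 and Timp2 are below 0 in all 3 pairs of both states and Mmp12 is above 0, while the call of Timp2 in LPS-primed BMDMs by DESeq2 with the replicate block (adjusted p 0.245) was the 1 call among the fits run.

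Several of the 10 genes kept the same order of replicates across groups. In the 4 groups given LPS for 24 h, replicate 1 was the highest in every group for 7 of the 10 genes, where 14.3% of all tested genes showed this. Mmp12, Mmp13 and Mmp19 kept the order of replicate 1, then 3, then 2 in all 4 groups, which 3.01% of tested genes did. The exceptions were Mmp14, highest in replicate 2 in all of them, Plau, also highest in replicate 2, and Mmp8, which was highest in replicate 3 in LPS-tolerant BMDMs with carboplatin. The pooled SD on the log2 scale over these groups placed Mmp12, Mmp8, Timp1, Mmp13 and Mmp9 above the 90th percentile of all tested genes. Mmp14, Timp2 and Mmp19 lay near the middle, with SDs of 0.346, 0.333 and 0.289. The part of the lower ambiguous share of the libraries numbered 1 in this was not tested. Without the libraries numbered 1 in every group, 7 of the 10 genes were called with priming (24.6% of all genes), Mmp13 (adjusted p 0.135) and Plau (0.0622) being lost, and 6 with the single dose (54.1%), Mmp9 (0.00553) being gained in edgeR. In LPS-tolerant against LPS-stimulated BMDMs 7 were called (35.8%), Timp1 (0.000356) and Plaur (0.000931) being gained, and against LPS-primed BMDMs 1 was called (6.49%), Plaur.

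Other genes of pericellular proteolysis were taken from lists written with earlier results of these data known. Their counts stand against 25.2% of all tested genes called with priming and 51.2% with the single dose, or 38.6% and 63.2% with the replicate block. Of 17 further metalloproteinases, 5 passed the expression filter, and the other 12 had at most 10 read pairs in any library. With the single dose, 2 rose, Mmp10 (stromelysin 2, from a mean of 1.46 to 43.9 normalized counts) and Mmp25 (a membrane-anchored metalloproteinase, from 2.67 to 61.4), and Mmp27 fell from 101 to 61.4. With the replicate block in edgeR, Mmp3 rose as well (from 0.303 to 12.97, adjusted p 0.000564). None of the 5 was called with priming in edgeR without the replicate block. With it, Mmp3 (from a mean of 0.303 to 6.07 normalized counts, adjusted p 0.022) and Mmp27 (101 to 165, 0.0415) were higher and Mmp28 (11.4 to 2.68, 0.0449) was lower. Further inhibitors were near absent, since Timp3 and Timp4 had no read pair in any library and Reck, a membrane-bound inhibitor, had at most 14.

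Of 14 further genes of the plasminogen system, 9 were tested. With the single dose, 5 rose and 1 fell (6 and 2 with the replicate block), and with priming 4 rose and none fell, with or without the block. Plat, the tissue-type plasminogen activator, had at most 1 read pair in any unstimulated library and a mean of 708 ± 386 normalized counts after the single dose. In LPS-tolerant BMDMs it was at 4.75 ± 5.09, lower than after the single dose (adjusted p 1.56e-06 in edgeR). Serpinb2, a urokinase inhibitor, had the reverse order, with 204 ± 92.9 after the single dose, 2454 ± 1492 in LPS-primed and 6229 ± 4472 in LPS-tolerant BMDMs. LPS-tolerant over LPS-stimulated BMDMs, it had a log2FC of 4.93 ± 0.66 and an adjusted p of 2.25e-05 in edgeR.

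Of 20 ADAM and ADAMTS proteases, 9 were tested, and 4 rose and 2 fell both with priming and with the single dose (5 and 3 with the single dose and the block). Adamts4, an aggrecan-cutting protease, rose with the single dose from 2.79 ± 2.44 to 774 ± 164 normalized counts, with a log2FC of 8.10 ± 0.63 and an adjusted p of 2.06e-08 in edgeR, and was at 3.37 ± 2.57 in LPS-tolerant BMDMs. Of 24 matrix proteins, 13 were tested, of which 5 rose and 1 fell with priming (7 and 3 with the block) and 9 rose with the single dose (11 with the block). Among them, Thbs1 (thrombospondin 1) rose with priming from 173 ± 7.39 to 23390 ± 18780, with a log2FC of 7.08 ± 0.86 and an adjusted p of 1.02e-05 in edgeR. Vcan, the proteoglycan versican, rose from 52.6 ± 10.8 to 5544 ± 2024, with a log2FC of 6.72 ± 0.38 and an adjusted p of 1.7e-09 in edgeR. Spp1 (osteopontin) was the 1 matrix gene that fell without the block, from 31830 ± 20430 to 7145 ± 3918, with a log2FC of -2.16 ± 0.65 and an adjusted p of 0.02 in edgeR. With carboplatin none of the tested genes of these lists was called in edgeR without the replicate block, in either state. With the block, the matrix gene Col18a1 was lower in both (log2FC -0.35, adjusted p 0.248, and -0.60, 0.0283) and Anxa2, a plasminogen receptor subunit, in LPS-tolerant BMDMs (-0.33, 0.147). Tnc (tenascin C), at 0 in LPS-primed libraries, had a mean of 4.63 with carboplatin (0.163), from at most 11 read pairs in a library. The block called 7.87% of all genes with carboplatin in LPS-primed and 6.93% in LPS-tolerant BMDMs.

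In each of the 3 classes, the gene with the widest range was compared with all other tested genes by the Pearson correlation of log2 CPM over the 18 libraries, which share groups, replicate numbers and depth. The pattern of Mmp14 was most like those of Rnf149 (r = 0.994), Sod2 (0.988), Clec4e (0.987), Msr1 (0.987) and Gsap (0.985). Timp1 was closest to Cebpb (r = 0.956), Nos2 (0.951), Il1b (0.945), Dusp1 (0.939) and Ccl9 (0.939). For Plaur the closest were Myl12a (r = 0.973), Tes (0.971), Mtmr7 (0.968), Irak2 (0.966) and Odc1 (0.965). Among the 10 genes themselves the highest correlation was between Mmp13 and Plaur (r = 0.896), followed by Mmp8 and Mmp9 (0.882) and Mmp14 and Timp1 (0.846). The lowest was between Mmp8 and Timp2 (r = -0.795). These correlations describe the 18 libraries and carry no test.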

How the data were processed

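Counts of read pairs per gene were deposited by the authors for 18 libraries as raw counts, without normalization. The authors prepared stranded mRNA libraries, used HISAT2 for alignment of the read pairs to GRCm39, and took gene counts from HTSeq-count. Program versions, gene annotation and strand setting are not given in the sources used here. Rows that name no gene were left out of library sizes. They held 41.5% to 46.9% of read pairs.

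The 18 libraries were fitted together in edgeR 4.0.16 (R 4.3.3; limma 3.58.1 and DESeq2 1.42.0 for alternatives), with a mean per group, TMM normalization, the filterByExpr defaults (at least 10 counts in enough libraries and 15 in total), the quasi-likelihood F test and a prior count of 0.125 for log2FC. SEs were derived from log2FC and the F statistic. The p values were adjusted after Benjamini and Hochberg over 11305 genes, and a gene was called at an adjusted p under 0.05 in LPS comparisons and under 0.25 in carboplatin comparisons, as in the study. The 95% intervals of log2FC are normal intervals from the SE. The script was tested on simulated data. Per-sample read-pair counts set the precision, and genes with few read pairs have wide errors.

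The 10 genes and the related lists were chosen with earlier results of these data known. All 10 genes are named, and from each related list at most the 2 called genes with the highest and the 2 with the lowest log2FC in a comparison. One gene of these lists is not reported here. Mmp14, Timp1 and Plaur had the widest range of their class. The marker genes, Timp3, Timp4, Reck and the list genes called with the replicate block alone are named outside that rule, after their values were seen. Replicates are labelled as biological, and nothing says which animals they came from, so p values measure the spread between these libraries. Replicate numbers come from the sample titles. Deviations from the group means correlated between same-numbered libraries by at least 0.183 over tested genes in each of the 6 comparisons of 2 groups. LPS-stimulated replicate 2 correlated by 0.237 with unstimulated replicate 2 but by 0.261 with another unstimulated library. In the contrast of the 4 groups, 15 of 18 pairs correlated most within their own number. The fit blocked on replicate number therefore stands beside the results that it changes.

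Alternatives were other size factors, other expression filters, DESeq2, limma-voom, fits of only the groups compared, the replicate block, other limits and leaving out each library. Leaving out all libraries of a replicate number, and the block in DESeq2, in limma-voom or with |log2FC| > 2, were added after the data were seen. Positions and exon lengths are those of GENCODE vM39, and promoter windows those of RefSeq on GRCm38.p6. Figures and tables were made with Python 3.11.15 and matplotlib 3.10.9, and exact permutation tests with scipy 1.17.1.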

Additional observations from a re-analysis of the deposited data

Results flagged for a closer look

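The change with 10 ng/ml LPS differed between unstimulated and LPS-primed BMDMs for 5 of the 10 genes by the contrast of the 4 groups in edgeR (23.8% of all tested genes). After priming, this dose came with a change of medium. The difference of log2FC, second minus first dose, was -6.28 for Mmp13, -7.70 for Mmp14, -2.15 for Mmp19, -8.01 for Timp1 and -2.82 for Plaur. All 5 kept their call in each of the 12 fits that left out 1 library. Without replicate 3 of every group, Plaur had an adjusted p of 0.0604 in edgeR. Groups of 3 libraries are too small for a test of single libraries that lie far from the rest.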

How the results depend on the processing

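Of 1376 recomputed log2FC values of the 10 genes, 1257 kept their direction and their side of the limit, 36 fell below it, 35 passed it and 48 changed sign. No sign change concerned a gene called in its comparison. Mmp12, LPS-tolerant against LPS-stimulated, was -0.17 with limma-voom, -0.32 with the replicate block and -0.37 with the block in DESeq2, and Mmp14, LPS-tolerant against LPS-primed, was -0.057 with library size alone. The other 44 came from leaving out libraries. With priming, log2FC ranged for Mmp12 from -0.879 to 1.807. With the single dose, log2FC ranged for Mmp8 from -0.459 to 0.189. In LPS-tolerant against LPS-stimulated BMDMs, log2FC ranged for Mmp12 from -0.706 to 1.213 and for Plau from -1.439 to 0.182. In LPS-tolerant against LPS-primed BMDMs, log2FC ranged for Mmp8 from -0.419 to 1.425, Mmp12 from -0.055 to 3.452, Mmp14 from -0.197 to 0.27 and for Timp1 from -2.026 to 0.756. With carboplatin in LPS-primed BMDMs, log2FC ranged for Mmp8 from -0.158 to 1.764, Mmp9 from -0.922 to 0.31, Mmp12 from -0.299 to 3.182, Mmp13 from -0.12 to 1.637, Timp1 from -0.903 to 1.37, Plau from -0.624 to 0.029 and for Plaur from -0.034 to 0.865. With carboplatin in LPS-tolerant BMDMs, log2FC ranged for Mmp8 from -0.124 to 1.192, Mmp9 from -0.894 to 0.072, Mmp12 from -0.448 to 1.783, Mmp13 from -0.194 to 1.073, Timp1 from -1.307 to 1.736, Plau from -0.529 to 0.181 and for Plaur from -0.581 to 0.462. In the second against the first dose, log2FC ranged for Mmp8 from -0.299 to 1.551, Mmp9 from -2.33 to 0.058 and for Mmp12 from -1.942 to 1.568. Values of single genes for the difference between the carboplatin effects were not recomputed. Depth limits Mmp9 and Timp1 in unstimulated BMDMs, and asking for 10 counts in every sample took both out of the test.

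With |log2FC| > 2, the number of genes called was 5 of 10 with priming and 3 in LPS-tolerant against LPS-stimulated BMDMs, with or without the replicate block. Without the block, the shares of all genes were 3.41% higher with priming, and 2.97% higher and 5.07% lower in the latter. With the single dose it was 8 at an adjusted p under 0.25. It was also 8 with the replicate block (63.2% of all genes) and with the block in DESeq2 (63.1%). In LPS-tolerant against LPS-stimulated BMDMs it was 8 with the block in edgeR (47.6% of all genes), DESeq2 (48.1%) and limma-voom. When single libraries were left out it ranged from 4 to 8, and it was 3 without replicate 2 and 2 without replicate 3 of every group. In LPS-tolerant against LPS-primed BMDMs it was 1 with limma-voom (6.16% of all genes) and 1 to 2 without single libraries. It was 1 (6.49%), 0 and 0 without replicate 1, 2 or 3 of every group. In LPS-primed BMDMs with carboplatin, DESeq2 with the block called 1 gene, Timp2 (9.37% of all genes). The fewer libraries, or the term for the block, are part of these settings, and other causes were not tested. Counts without a share of all genes beside them are no result about the 10 genes as a set.

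In the second against the first dose, 17 of 18 same-numbered correlations were above 0.1, the lowest being 0.063. The replicate block called 5 of the 10 genes there (36.2% of all genes), as did the fit without it (23.8%). In the other comparisons, the block changed no call beyond those given with the genes. Library size alone in place of TMM moved the median log2FC of all genes from -0.024 to -0.261 with priming, from -0.094 to -0.431 with the single dose and from 0.062 to 0.3 in the difference of doses. It also moved the share of calls that were higher from 48.1% to 26.4%, from 47.5% to 28.5% and from 44.2% to 63.3%, from 57.1% to 38.3% in LPS-tolerant against LPS-primed BMDMs and from 14.4% to 25.5% with carboplatin in LPS-tolerant BMDMs.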
